A study of Mus musculus with 6 samples.

Results

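The genes described here are the growth factors pleiotrophin (Ptn) and midkine (Mdk), with proteins reported to bind them and relatives of those proteins. The latter are the receptor tyrosine kinase Alk, the syndecans Sdc1, Sdc2, Sdc3 and Sdc4, nucleolin (Ncl) and the endocytic receptor Lrp1. Ltk is included as the paralogue of Alk, not as a receptor of these ligands. These 10 genes, of 19938 named on the array, were assembled by family around the lower Ptn and Sdc3 signals in Pax6 knockdown cells, so the knockdown differences of the 10 genes are given as a description. Their standard errors, intervals and calls come from the fit over all genes, and because the set was picked from this same contrast they are no independent evidence of a difference. The cells were N2A, a neuroblastoma line of mouse origin. The 3 control arrays came from N2A cells given the non-targeting vector and the 3 Pax6 knockdown arrays from N2A cells given a short hairpin vector against Pax6, with no other allele or agent in either group. Both were transiently transfected (1.5 µg of vector), RNA was taken at day 3, and the protocols describe no step that selects transfected cells. Per the study's methods the hairpins were driven by the U6 promoter of a plasmid that also carries eGFP.

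The oligonucleotide list of the study holds a single hairpin against Pax6, named Pax6sh896. Its forward strand of 52 bases is shown because no other hairpin against Pax6 is in that list. The hairpin loop and the end of the oligonucleotide, a T run and its last base, are in capitals. The labels do not name the hairpin used on each array.
Pax6sh896FOR: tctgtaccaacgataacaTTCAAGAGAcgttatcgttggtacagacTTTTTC

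Pleiotrophin and midkine form a small family of secreted heparin-binding growth factors that are abundant in the developing nervous system, where they promote neurite growth, survival and division. They are held at the cell surface by the heparan sulphate chains of syndecans, which are membrane proteoglycans. Receptors reported for them include the phosphatase PTPRZ1, ALK, LRP1 and nucleolin. ALK is a kinase of the sympathetic lineage and a well-known oncogene of neuroblastoma, and LTK is its close paralogue.

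Values are log2 signals after the authors' RMA normalization, and differences are knockdown minus control in the same log2 units, each with its standard error (SE) from the limma fit across all tested genes. Each of the 10 genes had 1 probe set. A signal depends on the probes as well as on the transcript, so signals are compared between arrays and not between genes. Signal in a culture cannot separate fewer expressing cells from less RNA per cell.

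Pax6, the targeted gene, read 8.79, 8.82 and 8.81 across the controls against 8.48, 8.30 and 8.50 after knockdown. The groups did not overlap, and the difference was -0.38 (SE 0.071, limma adjusted p = 0.0382). Leaving out any control array, or knockdown replicate 3, left Pax6 short of 10% FDR (adjusted p 0.120 to 0.180), while its difference ran from -0.42 to -0.32 whichever array was dropped. Of 11424 tested genes, 762 passed a false discovery rate (FDR) of 10%. Of 12 named markers of noradrenergic neuroblastoma cells 11 lay above the array median on all arrays, 1 on none, and 4 of them passed lower in the knockdown, their mean signal going from 11.01 to 11.06 in control arrays to 10.79 to 10.86 in knockdown arrays. The part of this shift in the differences below was not tested. Of the 4 haematopoietic markers, 0 lay above the array median on any array, against 2 of 5 fibroblast, 2 of 4 glial and 1 of 4 endothelial markers above it on all arrays, and 0 of these markers passed 10% FDR in either direction.

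Of the 10 genes, 9 passed the filter on low signal (above the median of an array's probe sets on at least 3 arrays). Of these 9, 5 passed 10% FDR lower in the knockdown (Ptn, Ltk, Sdc1, Sdc3 and Lrp1) and 0 higher, where 3.88% of all tested genes passed lower and 2.79% higher. The members were picked from this contrast, so nothing is read from that count. The knockdown arrays of 6 of the 10 genes, those 5 and Mdk, lay wholly below the control arrays, which 11.7% of all tested genes did. The opposite, all knockdown arrays above, was seen in 13.9% of tested genes and in 0 of the 10, and either kind of separation in 25.6%. The median difference was -0.30 over the 9 and 0.02 over all tested genes. Mdk passed the filter only through the control arrays, and Sdc2, counted among the 10 but not among the tested genes, did not pass. Nothing is read from the separations or the median either, since the members were picked from this contrast.

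**Figure D1:**
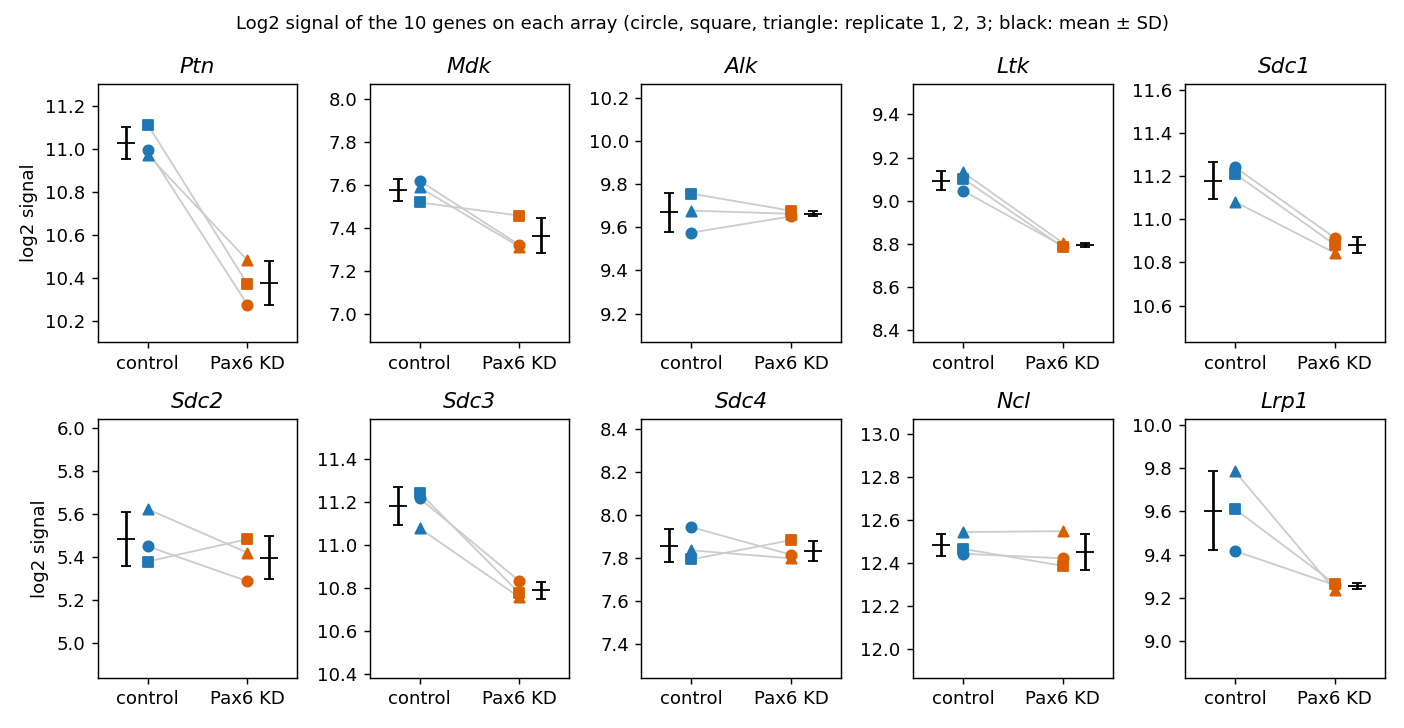
Log2 signal (vertical axes, each spanning the same width) of each gene on the 3 control and 3 Pax6 knockdown arrays, with grey lines joining arrays of the same replicate number and black bars for mean ± SD. Ptn, Mdk, Ltk, Sdc1, Sdc3 and Lrp1 separate into groups that do not overlap, while Alk, Sdc2, Sdc4 and Ncl overlap.

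Among the ligands, Ptn read 11.00, 11.11 and 10.97 across the controls against 10.28, 10.37 and 10.48 after knockdown. Every knockdown array lay below every control array by at least the width of either group. The group means came to 11.03 ± 0.075 (SD, n = 3) and 10.38 ± 0.10 (SD, n = 3), a difference of -0.65 (SE 0.075, 95% confidence interval -0.82 to -0.48), or 1.57-fold lower signal. Within replicate numbers 1, 2 and 3 the difference was -0.72, -0.74 and -0.49. With 1 array left out it ran from -0.70 to -0.60.

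Mdk, the other ligand, read 7.62, 7.52 and 7.59 across the controls against 7.32, 7.46 and 7.31 after knockdown. The control arrays sat just above the medians of their arrays, and the knockdown arrays sat below theirs. Over all 6 arrays these medians ran from 7.49 to 7.59. The difference was -0.21 (SE 0.066, 95% confidence interval -0.36 to -0.058), with -0.30, -0.061 and -0.28 within replicate numbers 1, 2 and 3. Mdk did not pass 10% FDR. With the replicate number as a block it did, where 8.91% of tested genes passed lower and 8.96% higher, but Mdk was tested only because its control arrays were above the filter, so nothing is read from that call.

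The promoters of Ptn and Sdc3 are shown because these are the genes the set was built around. Each is the 250 bases before the annotated start, read on the strand of the gene, from RefSeq on assembly GRCm38.p6, with the GC box letters GGGCGG, or their reverse complement, in capitals. Ptn lies at chr6:36810180-36810429 on the minus strand and Sdc3 at chr4:130792287-130792536 on the plus strand.
Ptn: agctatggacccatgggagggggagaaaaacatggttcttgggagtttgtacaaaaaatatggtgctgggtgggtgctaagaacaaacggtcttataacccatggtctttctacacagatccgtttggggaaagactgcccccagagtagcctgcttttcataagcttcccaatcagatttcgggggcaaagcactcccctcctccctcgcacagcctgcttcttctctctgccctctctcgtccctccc
Sdc3: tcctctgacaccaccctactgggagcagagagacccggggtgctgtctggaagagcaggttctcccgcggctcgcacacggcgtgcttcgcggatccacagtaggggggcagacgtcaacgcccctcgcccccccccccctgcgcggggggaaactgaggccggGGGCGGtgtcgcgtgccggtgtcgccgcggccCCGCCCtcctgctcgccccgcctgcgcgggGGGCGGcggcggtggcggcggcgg

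The promoters differ in composition. Over the annotated window of 300 bases, which adds the first 50 transcribed bases, GC content was 52.0% for Ptn with 6 CpG dinucleotides, and 77.7% for Sdc3 with 44, where the medians over 32851 promoters were 52.7% and 7. The Sdc3 window held 3 GC boxes and the Ptn window 0. Of the 8 genes with a promoter in the table, 7 held GGGCGG on either strand (Alk, Ltk, Sdc1, Sdc3, Sdc4, Ncl and Lrp1), as did 35.7% of all promoters. The GC content of these 7 windows ran from 64.0% to 77.7%, above the median of 52.7%. The letters TTCACGC, the core bound by the paired domain of PAX6, occurred only in the Alk window, and in 1.26% of all promoters. Neither the paired homeodomain site, TAAT followed by ATTA after any 3 bases, found in 0.487% of all promoters, nor TATAAA, found in 13.6%, occurred in any of the 8 windows. Both strands were searched, and none of these 4 motifs contains another. A match describes letters only.

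Of the receptor kinases, Alk read 9.58, 9.76 and 9.68 across the controls against 9.65, 9.68 and 9.66 after knockdown. The knockdown arrays fell inside the range of the controls. The difference was -0.0064 (SE 0.065, 95% confidence interval -0.16 to 0.14), and its sign varied between replicate numbers, at 0.075, -0.080 and -0.015.

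Ltk, the paralogue of Alk, read 9.05, 9.10 and 9.13 across the controls against 8.79, 8.79 and 8.80 after knockdown. The groups were well separated, and the knockdown arrays hardly differed (SD 0.0098, n = 3). The difference was -0.30 (SE 0.057, 95% confidence interval -0.43 to -0.17), or 1.23-fold lower signal. It was -0.26, -0.32 and -0.33 within replicate numbers and between -0.32 and -0.28 with 1 array left out. Removing control replicate 2, control replicate 3 or knockdown replicate 3 took Ltk out of the genes past 10% FDR.

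Among the syndecans, Sdc3, the large neural syndecan also known as N-syndecan and a pleiotrophin receptor on neurites, read 11.22, 11.24 and 11.08 across the controls against 10.83, 10.78 and 10.76 after knockdown. All knockdown arrays lay below all control arrays. The group means came to 11.18 ± 0.089 (SD, n = 3) and 10.79 ± 0.039 (SD, n = 3), a difference of -0.39 (SE 0.067, 95% confidence interval -0.54 to -0.24), or 1.31-fold lower signal. Within replicate numbers 1, 2 and 3 it was -0.38, -0.47 and -0.32, and with 1 array left out it ran from -0.44 to -0.36, with the call lost on removing control replicate 1, control replicate 2 or knockdown replicate 3.

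Sdc1, the syndecan best known from epithelia and plasma cells, read 11.24, 11.21 and 11.08 across the controls against 10.92, 10.88 and 10.84 after knockdown. The lowest control, replicate 3, was the array that also held the lowest Sdc3 control signal. The difference in Sdc1 was -0.30 (SE 0.066, 95% confidence interval -0.45 to -0.15), or 1.23-fold lower signal, and -0.33, -0.33 and -0.24 within replicate numbers. Its range was -0.35 to -0.27 with 1 array left out, and the call was lost when any control array or knockdown replicate 3 was removed.

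The other two syndecans overlapped between the groups. Sdc4, a widely expressed syndecan of focal adhesions, read 7.94, 7.79 and 7.84 across the controls against 7.82, 7.88 and 7.80 after knockdown, a difference of -0.025 (SE 0.065, 95% confidence interval -0.17 to 0.12). Sdc2, common in mesenchymal cells, read 5.45, 5.38 and 5.62 across the controls against 5.29, 5.48 and 5.42 after knockdown, below the median on all of them. Fitted without the filter on low signal, its difference was -0.087 (SE 0.088, 95% confidence interval -0.29 to 0.12), so neither direction was resolved.

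Of the other receptors, Ncl, a nucleolar protein of ribosome synthesis that also reaches the cell surface and binds both ligands, read 12.44, 12.47 and 12.54 across the controls against 12.42, 12.39 and 12.55 after knockdown. The arrays of replicate 3 were the highest of each group, and the groups overlapped. The difference was -0.032 (SE 0.067, 95% confidence interval -0.19 to 0.12).

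Lrp1, a large endocytic receptor for midkine and many other ligands, read 9.42, 9.61 and 9.79 across the controls against 9.26, 9.26 and 9.24 after knockdown. The control arrays spread widely (SD 0.18, n = 3) while the knockdown arrays hardly differed (SD 0.014, n = 3), and the groups did not overlap. The difference was -0.35 (SE 0.093, 95% confidence interval -0.57 to -0.14), or 1.28-fold lower signal. Within replicate numbers it was -0.16, -0.35 and -0.55, the widest range among the 10 genes, and it ran from -0.44 to -0.26 with 1 array left out. Lrp1 fell short of 10% FDR when control replicate 2 or 3, or knockdown replicate 1 or 3, was removed.

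**Figure D2:**
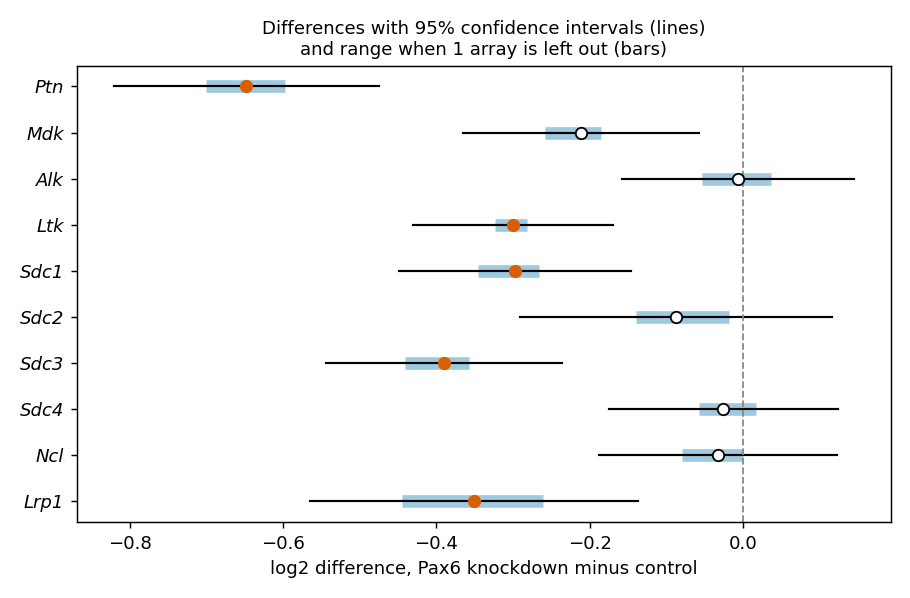
Log2 difference, Pax6 knockdown minus control (horizontal axis), of each gene with its 95% confidence interval (line) and the range of the difference when 1 array is left out (bar). Filled points mark the 5 genes past 10% FDR, from Ptn at -0.65 to Sdc1 at -0.30, while the intervals of Alk, Sdc2, Sdc4 and Ncl include 0.

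Other genes of the pathway were taken from 6 lists of receptors, proteoglycans, adaptors and partners. Of 98 such genes, 95 were named on the array and 73 tested, of which 2 passed 10% FDR, both lower, and 0 higher, where 6.67% of all tested genes passed in either direction. With the replicate number as a block, 16 of the 73 passed, 12 lower and 4 higher, which is 21.9% where 17.9% of all tested genes passed. The median difference over the 73 genes was -0.052. The lists were written with earlier results of these data known, so nothing is read from these or the following counts and shares.

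The 2 genes that passed were both other receptors of the ligands. Nrp1, encoding neuropilin-1, a co-receptor for semaphorins and VEGF that also binds pleiotrophin, read 11.47, 11.57 and 11.53 across the controls against 10.78, 10.67 and 10.59 after knockdown. Its groups lay far apart, and it fell by 0.84 (SE 0.069, limma adjusted p = 0.00309), with a difference between -0.89 and -0.80 and adjusted p no higher than 0.0346 when any 1 array was left out. Itgav, encoding the integrin alpha-v subunit of a pleiotrophin-binding integrin, read 10.83, 10.81 and 10.85 across the controls against 10.60, 10.38 and 10.30 after knockdown. It fell by 0.41 (SE 0.083, adjusted p = 0.0477), with the control arrays close together and the knockdown arrays spread. Itgav did not pass when any control array, or knockdown replicate 3, was left out (adjusted p 0.145 to 0.189), with differences from -0.49 to -0.34 over the 6 fits.

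Of the 7 tested receptors in that list, 5 did not pass. With the replicate block 4 of the 7 passed, all lower. Of all tested genes 17.9% passed with the block, 8.91% lower and 8.96% higher. The 4 receptor genes were Nrp1, Itgav, the receptor phosphatase gene Ptprs (-0.21) and the integrin gene Itgb1 (-0.17). The integrin gene Itgb3 of the same list went the other way, with every knockdown array above every control array (0.16, SE 0.063, limma adjusted p = 0.235). Itgb3 passed in neither fit (chosen after its values were seen). Ptprz1, the best known receptor of both ligands, averaged 4.74 in the control arrays and lay below the median on all 6 arrays, so it was not tested (chosen after its values were seen).

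The remaining lists held no gene past 10% FDR. Among 6 tested heparan sulphate proteoglycans other than syndecans the median difference was -0.13, and Tgfbr3, the betaglycan gene, had the lowest p (-0.19, SE 0.066, limma adjusted p = 0.166). With the replicate block, 2 of these 6 passed lower, Tgfbr3 and the agrin gene Agrn (-0.24). That is 33.3%, where 17.9% of all tested genes passed with the block, 8.91% lower and 8.96% higher. Among 18 tested partners and sheddases of syndecans the median was 0.0039, with Ezr, a linker of membrane proteins to actin, at -0.27 (SE 0.078, adjusted p = 0.113). With the block 3 of these 18 passed lower, Ezr, the sheddase gene Adam17 (-0.27) and the protease inhibitor gene Timp3 (-0.24). This share, 16.7%, was near the 17.9% of all tested genes.

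Among 15 tested ligands, adaptors and outputs of ALK and LTK the median difference was 0.10, with Ptpn11, the phosphatase SHP2, at 0.22 (SE 0.068, limma adjusted p = 0.130). With the block 2 of the 15 passed higher, Ptpn11 and Jak2 (0.35), which is 13.3% where 17.9% of all tested genes passed. The activating ligands Alkal1 and Alkal2 lay below the median on all arrays (chosen after their values were seen). Among 11 tested LDL receptor family genes and LRP1 partners the median was -0.12, with Lrp8, the reelin receptor gene, at -0.18 (SE 0.063, adjusted p = 0.168). With the block 2 of the 11 passed lower, Lrp10 (-0.20) and Lrpap1, the chaperone of LRP1 (-0.20), a share of 18.2%. Among 16 nucleolar partners of nucleolin the median was -0.031, with Nop56 of the box C/D complex at -0.21 (SE 0.059, adjusted p = 0.107). With the block 1 passed lower (Nop56) and 2 higher (Rrp1b and Gar1), a share of 18.8%. The shares of these last 2 lists were near the 17.9% of all tested genes.

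**Figure D3:**
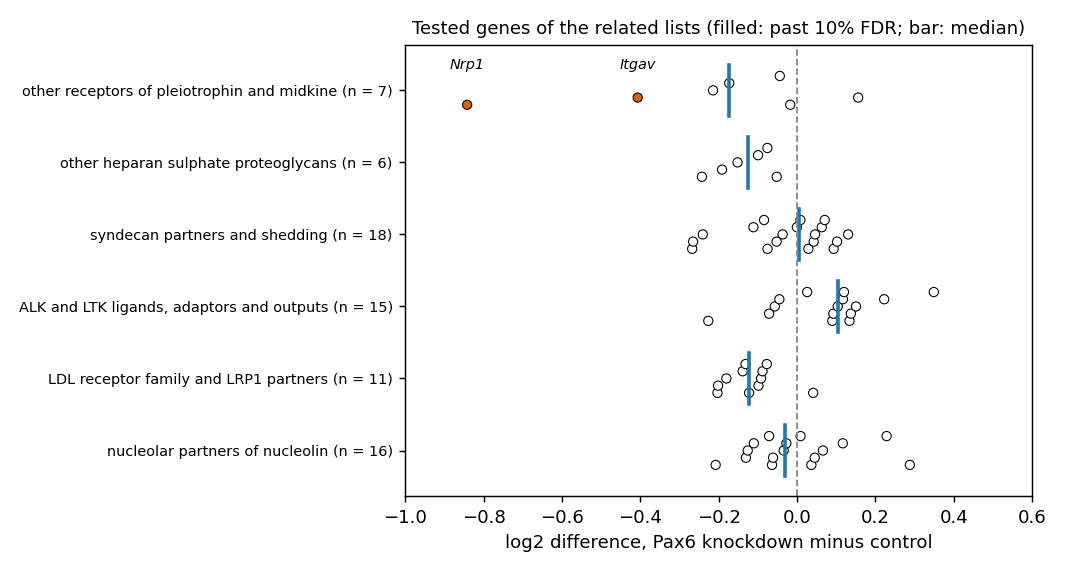
Log2 difference, Pax6 knockdown minus control (horizontal axis), of each tested gene in the 6 related lists (vertical axis, with the number tested), blue bars marking the median of each list. Only Nrp1 (-0.84) and Itgav (-0.41), filled, passed 10% FDR in the fit without a block.

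The protein-coding genes next to Ptn and Sdc3 were read out as well, with 3 genes taken on each side in the order of the RefSeq annotation. Beside Ptn, the next gene in that order, Dgki, encoding a diacylglycerol kinase, read 9.71, 9.74 and 9.78 across the controls against 10.26, 9.97 and 9.99 after knockdown. Dgki thus lay higher in every knockdown array, opposite to Ptn, and rose by 0.33 (SE 0.088, limma adjusted p = 0.0932). With 1 array left out Dgki passed only in the absence of knockdown replicate 2, and was lost in the other 5 fits (each control array, and knockdown replicates 1 and 3), with a highest adjusted p of 0.286 and differences from 0.23 to 0.38. Mtpn (0.039, SE 0.061) and Creb3l2 (0.019, SE 0.063) did not pass, and Fam180a, Chrm2 and Akr1d1 were below the filter on low signal. Beside Sdc3, Ptpru, a receptor phosphatase gene, was tested and did not pass (0.0081, SE 0.066), Laptm5 and Matn1 were below the filter, and the 3 genes on the other side were not analysed here.

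**Figure D4:**
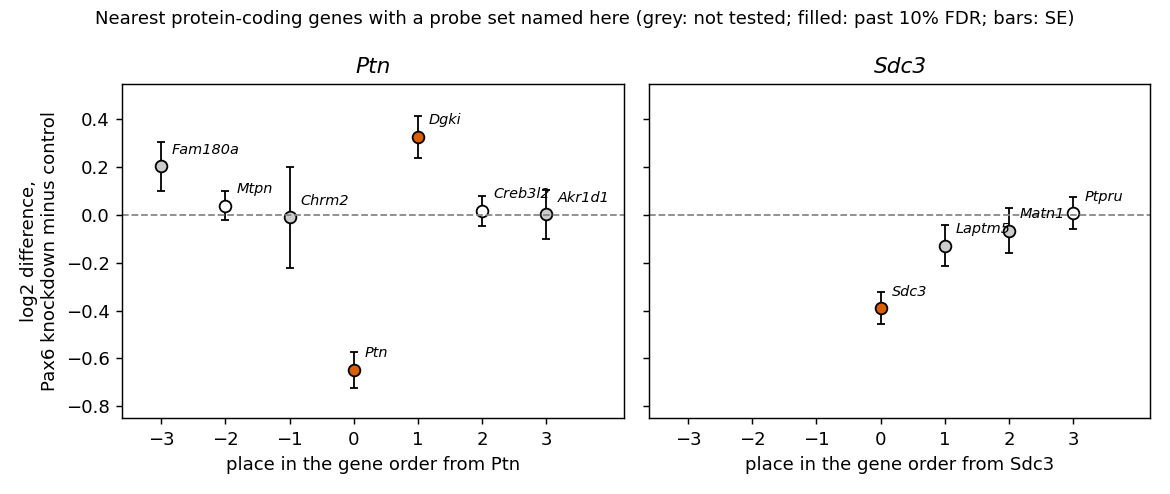
Log2 difference, Pax6 knockdown minus control, with its SE (vertical axis) for Ptn, Sdc3 and the neighbouring genes that had a named probe set, by place in the gene order (horizontal axis, Ptn or Sdc3 at 0). Ptn (-0.65) and the adjacent Dgki (0.33) lie on opposite sides of 0.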

How the data were processed

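RNA (200 ng per sample) from 3 control and 3 Pax6 knockdown samples of N2A cells was labelled for an Affymetrix mouse gene array. The authors background-corrected the arrays by RMA, quantile-normalized them and deposited log2 summary values per probe set, so a change in total RNA cannot be seen. Versions and annotation build are not given in the sources used here. The labels name limma and RMA. The table held 35556 probe sets, 21789 of them with 1 gene symbol in the platform annotation, and the highest-mean probe set was kept per gene (19938 genes). A gene was tested if it exceeded the array's median on at least 3 of 6 arrays (11424 genes).

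Groups were compared with limma 3.58.1 in R 4.3.3 (lmFit and eBayes, two-sided, Benjamini-Hochberg over all tested genes, 10% FDR, the study's threshold). Confidence intervals are 95% intervals of that fit. The fit was tested on simulated data. The study's methods call the samples biological replicates. Their number limits the precision. The members, gene lists and tests were chosen with earlier results of these data known. Named genes were the 10 members, Pax6, up to 4 passing genes per related list (or the lowest p), and tested neighbours of Ptn and Sdc3.

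Control and knockdown arrays share replicate numbers. Deviations from group means correlated at 0.57, 0.32 and 0.23 within numbers 1, 2 and 3 across tested genes. Each of these was higher than any correlation between arrays of unlike number. The values reported come from the fit without a block, and a fit blocked on the number served as an alternative. The pairing comes from the data, and control replicate 3 with knockdown replicate 2 also correlated, at 0.18. Symbols were matched to RefSeq (GRCm38.p6) by identifier, and promoters by symbol for 8 of 10 members. Of the related genes, 3 had no single-symbol probe set under that name and were not analysed here.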

Additional observations from a re-analysis of the deposited data

How the results depend on the processing

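The members were picked from this contrast on these 6 arrays, so their counts below describe how the calls move with the processing and support no difference. Array median centring, the mean of probe sets and an intensity trend kept the count of members called at 5 and the count of all genes called within 1.5 times of 762. With no filter on low signal, 2 members (Ptn and Sdc3), 1 related gene (Nrp1) and 245 genes in all passed. The calls of Ltk, Sdc1, Lrp1, Itgav and Dgki were lost there (limma adjusted p 0.104 to 0.199). With the filter at the 75th percentile, 3 of 4 tested members, 9 of 61 tested related genes and 1046 of 5982 genes in all passed. A second quantile normalization gave 8 related genes and 1383 in all, array weights 16 and 2409, and the intensity trend 7 and 1069. Each of these settings tested 73 related genes and 11424 genes in all. The replicate block gave 6 members (adding Mdk, which was tested only through its control arrays), 16 related genes and 2042 in all, and ended no call of a named gene. With 1 array left out, between 1 and 6 members, between 1 and 6 related genes and between 51 and 1285 genes in all passed: 1 member, Ptn, passed without control replicate 2 or knockdown replicate 3, which gave 51 and 56 genes in all. The cause of these shifts was not tested. Mdk lies near the array median, just above it on the control arrays and below it on the knockdown arrays. Sdc2 lies below the median on all arrays. These low signals limit what can be seen of the differences of Mdk and Sdc2.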
